A study of Sus scrofa with 23 samples.

Results

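The comparison described here was the change in the psilocybin effect between 1 day and 1 week in pig prefrontal cortex. It was the difference between psilocybin and saline at 1 week minus the difference between psilocybin and saline at 1 day, called the interaction below, with batch in the model. A positive interaction means that expression relative to saline was higher at 1 week than at 1 day. The comparison used 23 of the 23 libraries analysed and covered the 15049 of 25880 annotated genes that passed a minimum count.

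Each library came from 1 adolescent female Danish slaughter pig of 20 kg. Every animal received 1 intravenous injection while awake and freely moving, of saline or of psilocybin at 0.08 mg per kg, and was killed 1 day or 1 week afterwards with intravenous pentobarbital. Brains were snap frozen, and the prefrontal cortex was sequenced as poly-A selected RNA. The 4 groups were saline 1 day with 5 animals, psilocybin 1 day with 6, saline 1 week with 6 and psilocybin 1 week with 6. No genetic modification was labelled, the injection and the killing were shared by all groups, and no animal was sampled at both times, so the comparison is between animals.

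Psilocybin is converted in the body to psilocin, an agonist of serotonin receptors, of which the Gq-coupled 5-HT2A receptor encoded by HTR2A is abundant in cortical pyramidal neurons. Receptor activation raises activity-induced genes such as FOS, ARC and EGR1 for a short time, while synaptic and receptor genes can follow over days. A treatment by time interaction separates an effect that differs between an early and a late time from one that is the same at both. The interferon response is started by sensors of foreign nucleic acid, carried by secreted interferons and their JAK and STAT signalling receptors, and executed by a shared set of induced genes in microglia, astrocytes, endothelial cells and neurons.

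The libraries held 9504373 to 18654557 counts assigned to genes. The tissue markers were those of cortex: mean expression was 1097 CPM (counts scaled to a common library size after TMM) for SLC17A7, the vesicular glutamate transporter of excitatory neurons, 272 CPM for GAD1 of inhibitory neurons and 2499 CPM for GFAP of astrocytes. A first principal component of log2 CPM, computed after the batch difference was removed, held 21.3% of the variance. It was highest in 3 libraries, called below the libraries that stood apart. They were animal 5 of the saline 1 day group (40.1), animal 1 of the saline 1 week group (37.8) and animal 6 of the psilocybin 1 week group (28.3). Animals are numbered within each group. Animal 1 of the psilocybin 1 day group followed at 20.1 with no clear break, so the cut at 3 was a choice. The labels split the animals into 2 batches crossed with the groups, with 2 or 3 animals of each group in each batch. The share of counts from mitochondrially encoded genes had an interaction of -0.495 percentage points. Treatment labels were exchanged within each time and batch, and most arrangements were at least as far from 0 (exact two-sided permutation p = 0.756). This exchange assumes no treatment effect at either time.

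No gene passed the test of the interaction. Of 15049 genes, 0 had an adjusted p under 0.05 (0% called, edgeR's quasi-likelihood test with Benjamini-Hochberg adjustment), and the smallest adjusted p was 1. At an unadjusted p under 0.05 there were 304 genes (2.02% of all tested), of which 167 were positive (1.11%) and 137 negative (0.91%); 5% of the tested genes is 752. DESeq2 and limma-voom also called 0 genes. Every gene named below is therefore given by its values and its unadjusted p, as one of the genes with the smallest p or as a member of a list, and not as a gene that changed.

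The 4 simple differences from which the interaction is built also called 0 genes each (0% called). Psilocybin against saline at 1 day had 190 higher (1.26%) and 236 lower genes (1.57%) at an unadjusted p under 0.05, 2.83% together, and at 1 week it had 300 (1.99%). From 1 day to 1 week, 303 genes reached that level in saline animals (2.01%, smallest adjusted p 0.241) and 479 in psilocybin animals (3.18%, smallest adjusted p 0.0917), in edgeR's test. These differences share animals with each other and with the interaction.

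The precision set which interactions could have been seen. The median standard error of the interaction was 0.19 on the log2 scale, against 0.13 for psilocybin versus saline at 1 day and 0.13 at 1 week. The 95% confidence interval lay wholly within 0.5 log2 units of 0 for 7449 genes (49.5%) and within 1 log2 unit, a 2-fold difference of effects, for 12884 genes (85.6%). Among the 618 genes under 1 CPM only 5.66% had an interval within 1 log2 unit, against 98.8% of the 2033 genes over 100 CPM. Genes at an unadjusted p under 0.05 made up 5.18% of the former and 1.08% of the latter.

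Among the 304 genes the psilocybin difference had opposite signs at the 2 times in 299 (98.4%), against 6865 of all tested genes (45.6%), a property that selecting on the interaction favours. The positive 167 had a median log2 difference of -0.37 at 1 day and 0.33 at 1 week. The negative 137 had medians of 0.20 and -0.17. The difference between times was larger in saline than in psilocybin animals for 42.1% of the 304 genes and for 45.8% of all tested genes.

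**Figure D1:**
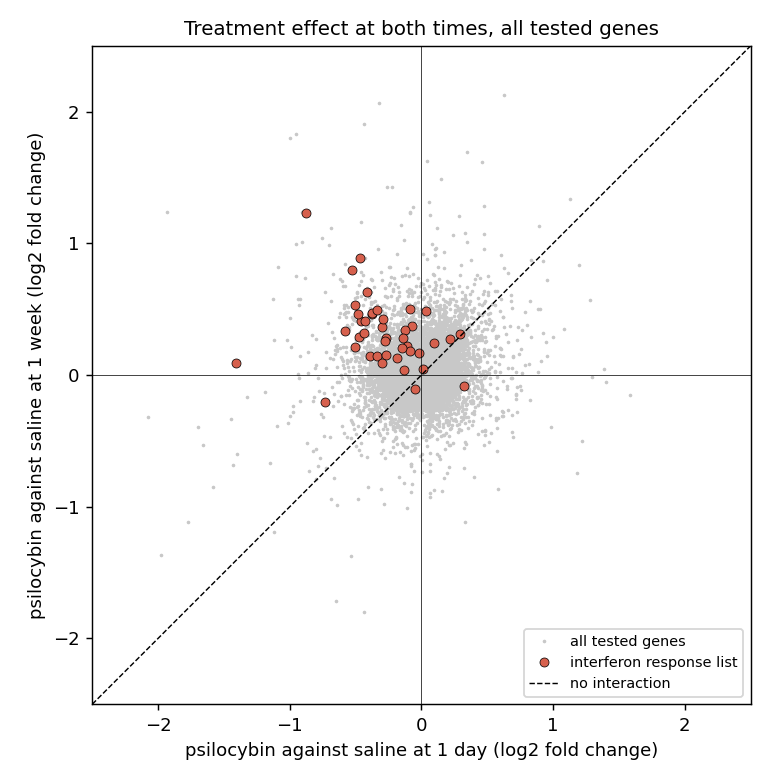
Psilocybin against saline at 1 day (horizontal axis) and at 1 week (vertical axis), both as log2 fold change, with 1 grey point for each tested gene and red points for the interferon response list. Points above the dashed line have a positive interaction, as 40 of the 42 interferon genes do, and 4 genes lie outside the axes, which end at 2.5.

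The smallest p of all belonged to CENPF (ENSSSCG00000015581, susScr11 chromosome 9, 128949182 to 129008793, minus strand), which encodes a kinetochore protein made by dividing cells. The 5 saline animals at 1 day had 1.55, 0.832, 1.65, 2.3 and 1.56 CPM, and psilocybin animals at 1 day had 0.645 to 1.58 CPM with a median of 1.12. At 1 week saline animals had 1.04 to 2.14 CPM with a median of 1.53, and psilocybin animals had 2.09 to 3.06 CPM with a median of 2.59. The psilocybin animals were thus among the lower ones at 1 day and the higher ones at 1 week, where the groups overlapped only in that the lowest psilocybin animal was below the highest saline animal. The log2 difference was -0.46 ± 0.22 (SE) at 1 day and 0.72 ± 0.20 at 1 week, an interaction of 1.17 ± 0.30 (unadjusted p = 0.000658). From 1 day to 1 week CENPF differed by 0.04 in saline and by 1.21 in psilocybin animals, the latter with the smallest p of that comparison in edgeR's test (adjusted p = 0.0917). The counts behind these levels were low, from 7 upward in a library of psilocybin animals at 1 day.

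ARHGAP15 (ENSSSCG00000015671, chromosome 15, 8192607 to 8812049, minus strand) encodes a Rac GTPase-activating protein that is prominent in leukocytes. Saline animals at 1 day had 0.859, 1.16, 0.744, 1.12 and 1.63 CPM, and psilocybin animals had 0.369 to 1.02 CPM with a median of 0.495. At 1 week the order was the other way, with 0.311 to 1.04 CPM (median 0.632) after saline and 0.612 to 1.67 CPM (median 1.07) after psilocybin. The groups overlapped at both times. The interaction was 1.70 ± 0.45 (unadjusted p = 0.00101), with 1.66 in batch 1 and 1.88 in batch 2.

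CXCL10 (ENSSSCG00000032474, chromosome 8, 71690758 to 71696162, minus strand), an interferon-induced chemokine that attracts T cells, differed mainly at 1 day. Saline animals had 4.12, 4.57, 2.31, 2.75 and 5.09 CPM then, all above the psilocybin animals at 0.663 to 2.08 CPM (median 1.48). At 1 week saline animals had 1.43 to 4 CPM (median 2.83) and psilocybin animals 1.39 to 4.59 CPM (median 3.22), which is nearly the same range. The log2 difference was -1.41 ± 0.31 at 1 day and 0.09 ± 0.29 at 1 week, and the interaction was 1.50 ± 0.42 (unadjusted p = 0.00171).

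NMB, the gene of neuromedin B, a peptide of the bombesin family, had the same form. Its 5 saline animals at 1 day had 8.94, 7.65, 5.04, 5.99 and 9.05 CPM, against 3.25 to 5.25 CPM (median 4.28) after psilocybin, so that 1 saline animal lay below the highest psilocybin animal. At 1 week the saline animals had 3.57 to 6.69 CPM and the psilocybin animals 3.61 to 6.19 CPM. The NMB interaction was 0.86 ± 0.26 (unadjusted p = 0.00277), made of -0.81 ± 0.18 at 1 day and 0.05 ± 0.18 at 1 week, and saline animals were 0.63 lower at 1 week than at 1 day (log2 difference -0.63).

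The other 8 of the 12 positive genes with the smallest p differed in both directions or chiefly at 1 time. GBP1, an interferon-induced GTPase, had an interaction of 0.87 ± 0.28, and IFI35, another interferon-induced gene, had 0.54 ± 0.18. FAM111B, which encodes a protease, had 0.95 ± 0.30, TMEM156 had 1.43 ± 0.46 and FAM227B, whose exons overlap those of DTWD1 and GALK2 on the other strand, had 1.01 ± 0.31. ZFAND1, a factor of stress granule clearance, had 0.61 ± 0.21. TRADD, the adaptor of tumour necrosis factor receptors, had the smallest interaction of these at 0.33 ± 0.11, and BMP3, a bone morphogenetic protein, had 1.09 ± 0.38. BMP3 differed mostly at 1 week, by 0.78 ± 0.26 against -0.31 ± 0.27 at 1 day. Unadjusted p-values of these 8 ran from 0.0038 to 0.00808, and all 12 positive genes were positive in both batches fitted alone. Selecting on the interaction favours this sharing of sign. It held for 165 of the 167 positive genes (98.8%), against 41.4% of all tested genes.

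The negative interactions were smaller in size and lay in more abundant genes. MFGE8 (ENSSSCG00000001834, chromosome 7, 54539614 to 54571637, minus strand), a secreted protein that bridges dying cells to phagocytes, had the smallest p. Its level was 101, 145, 129, 120 and 128 CPM in saline and 129 to 166 CPM (median 144) in psilocybin animals at 1 day. At 1 week it was 142 to 189 CPM (median 150) in saline and 123 to 142 CPM (median 135) in psilocybin animals. Psilocybin animals were therefore on the upper side at 1 day and on the lower side at 1 week, when the highest of them was level with the lowest saline animal. The interaction was -0.43 ± 0.12 (unadjusted p = 0.00197), with 0.21 ± 0.09 at 1 day and -0.21 ± 0.08 at 1 week.

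COL9A3 (chromosome 17, 62085498 to 62093703, plus strand), a chain of collagen IX whose exons overlap those of TCFL5 on the other strand, had 15.5, 11.1, 9.25, 9.36 and 8.49 CPM in saline and 9 to 19.5 CPM (median 14.7) in psilocybin animals at 1 day. At 1 week it had 8.79 to 16.2 CPM (median 13.3) after saline and 9.87 to 12.7 CPM (median 10.4) after psilocybin. The groups overlapped at both times, and the COL9A3 interaction was -0.66 ± 0.20 (unadjusted p = 0.00339).

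PDPN (chromosome 6, 73018916 to 73049996, plus strand) encodes podoplanin, a membrane glycoprotein of reactive astrocytes and lymphatic endothelium. At 1 day all 5 saline animals, at 14.8, 16.8, 17.2, 20.1 and 20.3 CPM, were below the 6 psilocybin animals at 22 to 25.7 CPM (median 23.6). At 1 week PDPN ranged from 17.8 to 33.9 CPM (median 23.3) after saline and from 17.1 to 28 CPM (median 19) after psilocybin, so the separation was gone. The PDPN interaction was -0.65 ± 0.21 (unadjusted p = 0.0049), and it was -1.02 in batch 1 and -0.33 in batch 2.

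TPP1 (chromosome 9, 3135562 to 3143715, plus strand), a lysosomal tripeptidyl peptidase, was likewise separated at 1 day, with 76.5, 77.2, 79.5, 78.7 and 59.6 CPM after saline and 80.6 to 99.8 CPM (median 93.8) after psilocybin. At 1 week TPP1 was at 71.4 to 102 CPM (median 97.6) after saline and 74.7 to 101 CPM (median 85.7) after psilocybin. Its saline level was 0.32 log2 units higher at 1 week than at 1 day, while the psilocybin level differed by -0.08. The TPP1 interaction was -0.40 ± 0.14 (unadjusted p = 0.00719). The gap at 1 day was narrow for TPP1, from 79.5 to 80.6 CPM. Selecting on the interaction favours a separation at 1 day, as for CXCL10, PDPN and TPP1. The share of all tested genes with such a separation was not counted.

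The other 8 negative genes included 3 tied to metabolism or second messengers and 1 astrocyte marker. IVD, an enzyme of leucine breakdown, had an interaction of -0.38 ± 0.13, PDE1C, a calmodulin-dependent phosphodiesterase, had -0.59 ± 0.21, and NPR3, the clearance receptor of natriuretic peptides, had -0.61 ± 0.22. ALDH1L1, a folate enzyme used as an astrocyte marker, had -0.42 ± 0.15. CADM1, a synaptic adhesion molecule, had -0.29 ± 0.11, and ASIC4, of the acid-sensing ion channel family, had -0.52 ± 0.17 with exons that overlap CHPF on the other strand. RIOX1, a ribosomal oxygenase, had -0.51 ± 0.18, and FRMD1 had -0.96 ± 0.36. Their unadjusted p-values ran from 0.00563 to 0.0125, and all 12 negative genes were negative in both batches fitted alone. Selection favours this here too, as it held for 132 of the 137 negative genes (96.4%), against 41.4% of all tested genes.

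**Figure D2:**
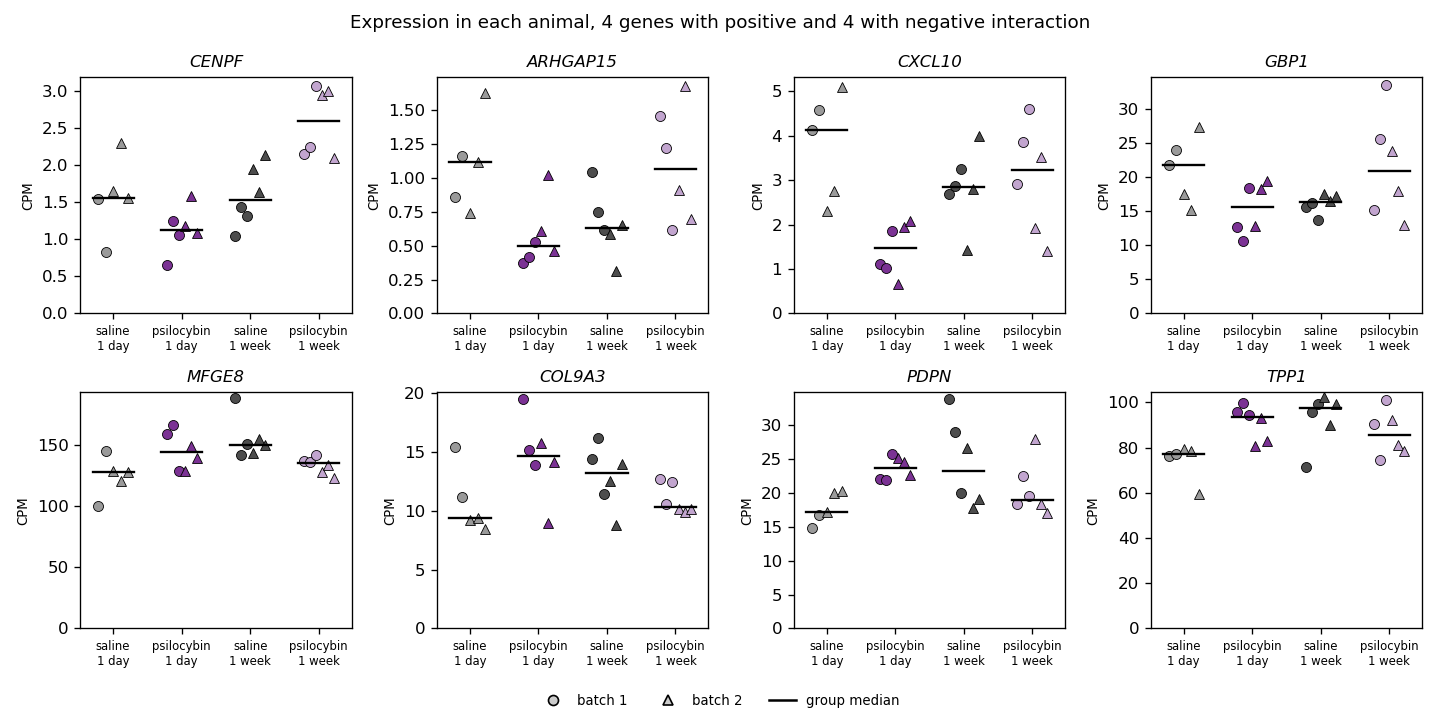
Expression in CPM (vertical axes, starting at 0) in each of the 23 animals by group, for 4 of the 12 positive and 4 of the 12 negative genes with the smallest p, with circles for batch 1, triangles for batch 2 and a line at the group median. CXCL10, PDPN and TPP1 separate the groups at 1 day, where CXCL10 reaches 2.08 CPM after psilocybin and starts at 2.31 CPM after saline. These genes were selected on an interaction that contains the 1 day difference, and the share of all genes that separate was not counted. CENPF stands highest in psilocybin animals at 1 week.

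The interferon response list, of genes induced by interferons, lay further to the positive side than any other list examined. Of 42 members tested, 40 had a positive interaction, against 50.3% of all tested genes, and the median was 0.54 against 0.00 over all genes. At an unadjusted p under 0.05 there were 18 members, all positive (42.9% of the list, against 2.02% of all tested genes, or 1.11% for positive ones), and 0 at an adjusted p under 0.05. The list had been chosen with earlier results of these animals known, so this count is a description and not independent evidence of a direction. The median difference between psilocybin and saline was -0.29 at 1 day, with 36 members lower (48.6% of all tested genes), and 0.29 at 1 week, with 39 members higher (48.8% of all tested genes). Over the same interval 36 members were lower at 1 week in saline animals (median -0.20, against 48.3% of all tested genes lower) and 39 were higher in psilocybin animals (median 0.36, against 54.3% of all tested genes higher).

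Among the secreted and effector members of the interferon response, CXCL10 had the smallest p and RSAD2, which encodes the antiviral enzyme viperin, the largest interaction (RSAD2 was singled out after its values were seen). RSAD2 was at 8.25, 3.99, 27.1, 7.96 and 4.88 CPM in saline and 1.94 to 18 CPM (median 3.32) in psilocybin animals at 1 day. At 1 week it was at 1.04 to 13 CPM (median 2.48) after saline and 2.64 to 23.5 CPM (median 6.13) after psilocybin. Single animals reached several times their group's median in every group. The RSAD2 interaction was accordingly imprecise, at 2.10 ± 0.89 (unadjusted p = 0.0275), with 3.69 in batch 1, 0.89 in batch 2 and 1.29 without psilocybin 1 week animal 3.

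IFIT1, which binds viral RNA, also varied between animals, though its interaction was more precise than that of RSAD2. Saline animals at 1 day had 25.8, 15, 31.9, 19.2 and 31.8 CPM, and psilocybin animals had 13.4 to 27.7 CPM (median 15.3). At 1 week saline animals had 14.2 to 24.3 CPM (median 16.6) and psilocybin animals 14 to 40.6 CPM (median 19.9). The groups overlapped at both times, and the IFIT1 interaction was 0.94 ± 0.33 (unadjusted p = 0.00814). The IFIT and GBP families hold similar copies among which counting could split reads, which was not tested.

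GBP1 (chromosome 4, 127289856 to 127442565, plus strand) had 21.7, 24, 17.5, 15.2 and 27.3 CPM in saline animals at 1 day and 10.6 to 19.4 CPM (median 15.5) in psilocybin animals. At 1 week GBP1 had a narrow range of 13.7 to 17.4 CPM (median 16.3) after saline and a wide one of 12.9 to 33.4 CPM (median 20.9) after psilocybin. The GBP1 interaction was 1.41 in batch 1 and 0.37 in batch 2.

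The signalling steps that lead to these genes had values nearer 0. Of 25 tested members of the list of interferon ligands, receptors and signalling, 15 were positive, against 50.3% of all tested genes. The list median was 0.07 (0.18 in batch 1 and -0.04 in batch 2), and 0 members had an unadjusted p under 0.05. The ligands were hardly detected: IFNB1, IFNG and IFNK had at most 2 counts and IFNE at most 3 counts in any library, below the filter, so an interaction of these 4 ligands was not detectable at this depth. IFNA1 and IFNL3 had no symbol match and were not analysed here. The receptors differed little, with -0.01 ± 0.18 for IFNAR1, a chain of the type I receptor, and -0.02 ± 0.14 for IFNGR1, a chain of the type II receptor. Among the transducers IRF9, part of the factor that drives the induced genes, had 0.45 ± 0.29, and 0.26 without psilocybin 1 week animal 3. Among the sensors TLR3, for double-stranded RNA, had 0.63 ± 0.38, and MAVS, the mitochondrial adaptor of the RNA sensors, had -0.21 ± 0.14. Exons of IRF9 overlap REC8 on the same strand.

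**Figure D3:**
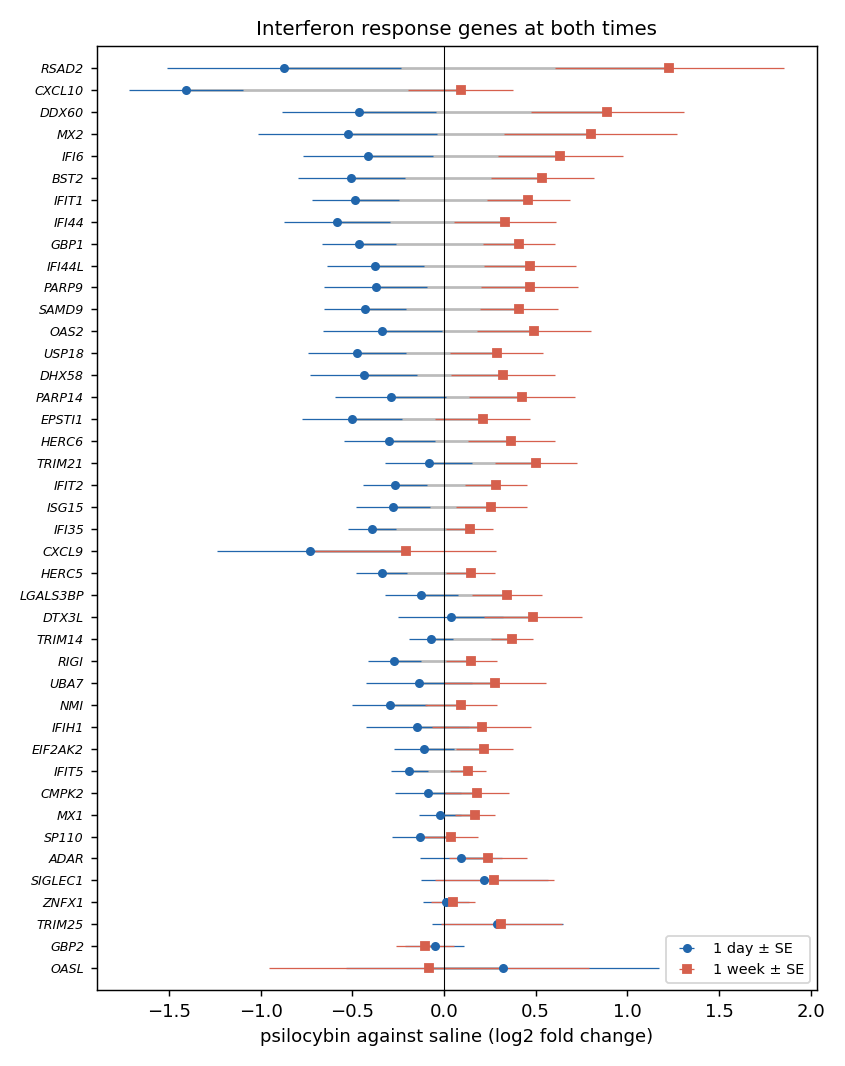
Psilocybin against saline as log2 fold change (horizontal axis) with its SE for the 42 tested interferon response genes, blue circles for 1 day and red squares for 1 week, ordered by the interaction. For 40 genes the 1 week value lies to the right of the 1 day value, and the error bars of single genes are wide, as for RSAD2.

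The list score (the mean over members of log2 CPM, each centred on its mean over the 23 animals) showed which animals were high in the interferon response. In saline animals at 1 day it was 0.23, -0.24, 0.54, 0.04 and 0.15. In psilocybin animals at 1 day it ran from -0.44 to 0.48 with a median of -0.28, and 5 of these 6 animals were below 0. At 1 week it ran from -0.47 to 0.18 (median -0.15) after saline and from -0.32 to 0.76 (median -0.02) after psilocybin. The psilocybin animals at 1 week were thus unlike each other: animals 3 and 5 had 0.76 and 0.68, while 3 of the 6 were below 0. All 4 groups overlapped.

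The interferon response kept a positive median in each batch, of 0.88 with 42 of 42 members positive in batch 1 and of 0.40 with 35 of 42 in batch 2. Without the 3 libraries that stood apart it was 0.61, with 20 members at an unadjusted p under 0.05. That number depended on single animals. It was 8 without psilocybin 1 week animal 3, 8 without saline 1 day animal 3, 9 without psilocybin 1 week animal 5, 10 without psilocybin 1 day animal 4, 11 without saline 1 day animal 1, 12 without saline 1 week animal 1 and 27 without psilocybin 1 week animal 6. It was 10 with limma-voom, 11 without the batch term, and 15 and 3 in batch 1 and batch 2 alone. The median stayed between 0.43 and 0.63 as each animal was left out.

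Genes of the neighbouring immune programmes leaned the same way by less. In antigen presentation 16 of 17 tested genes were positive, against 50.3% of all tested genes, with a median of 0.25. In batch 1 alone 12 of the 17 were positive and in batch 2 alone 15. Of the 17, 1 had an unadjusted p under 0.05 (5.88% of the list, against 2.02% of all tested genes). It was PSMB8, a subunit of the immunoproteasome, with an interaction of 0.49 ± 0.23. TAP1, of the peptide transporter, had 0.32 ± 0.20, CTSS, the protease that trims the invariant chain, 0.31 ± 0.20, and SLA-DMA, which loads class II molecules, 0.40 ± 0.27. SLA-DMA was at 0.14 without saline 1 day animal 2, and TAP1 at 0.21 without psilocybin 1 week animal 3. Exons of TAP1 overlap PSMB9 on the other strand and those of CTSS overlap ARNT on the same strand. Most class I genes of the SLA locus had no symbol match and were not analysed here.

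In the list of inflammatory cytokines and chemokines 12 of 16 genes were positive (median 0.21), against 50.3% of all tested genes. Of the 16, 1 had an unadjusted p under 0.05 (6.25% of the list, against 2.02% of all). IL1A, IL6 and CXCL8 were below the filter, and IL1B and TNF had no symbol match and were not analysed here. IL18, an inflammasome cytokine, was at 5.86 ± 1.64 CPM (SD, n = 5) in saline and 4.01 ± 0.783 (n = 6) in psilocybin animals at 1 day, and at 5.61 ± 1.88 and 5.8 ± 1.35 (n = 6 each) at 1 week. Its interaction was 0.67 ± 0.23 (unadjusted p = 0.00859), and it arose from the 1 day difference of -0.59 ± 0.17. CCL2, a chemokine for monocytes, differed at 1 week instead, by 1.03 ± 0.39 against -0.13 ± 0.41 at 1 day, with an interaction of 1.16 ± 0.57 at an unadjusted p of 0.051. IL1R1, the interleukin 1 receptor, had 0.62 ± 0.37 and CASP1, the inflammasome protease, 0.57 ± 0.35, which was 0.37 without saline 1 day animal 5.

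In the complement list 12 of 16 genes were positive, against 50.3% of all tested genes, and 2 had an unadjusted p under 0.05 (12.5% of the list, against 2.02% of all). The complement median was 0.17, but 0.074 without psilocybin 1 day animal 4 and 0.26 without psilocybin 1 week animal 2. C2, the protease of the classical pathway, had an interaction of 1.08 ± 0.44, but its exons overlap those of CFB on the same strand and reads were shared between them. C7, a component of the membrane attack complex, had 1.62 ± 0.76, from low levels with a count of 1 in a library of each 1 week group. The C7 interaction was 1.23 without psilocybin 1 week animal 3 and 2.30 without saline 1 week animal 2. C3AR1, the receptor for a fragment of C3, had 0.84 ± 0.43.

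Values for cell markers stood beside these lists. Of 22 microglia markers 18 were positive, against 50.3% of all tested genes, with 0 at an unadjusted p under 0.05. The lists share members, so their counts are not separate results. CTSS, for example, is counted both in antigen presentation and as a microglia marker, and the complement and microglia medians were identical at 0.166. The median of the microglia markers was 0.17, but 0.061 without psilocybin 1 day animal 4, which had the lowest microglia score, and 0.26 without psilocybin 1 week animal 2. PTPRC, the pan-leukocyte phosphatase, had 0.61 ± 0.34, the myeloid transcription factor SPI1 had 0.26 ± 0.16, and the purine receptor P2RY13 had 0.66 ± 0.49. SPI1 was at 0.14 without saline 1 day animal 5 and P2RY13 at 0.33 without saline 1 day animal 1. The summed level of the microglia markers was 334 to 567 CPM in saline and 281 to 573 CPM in psilocybin animals at 1 day, and 414.9 to 557 CPM and 392 to 641 CPM at 1 week. In bulk tissue fewer cells of a type and less RNA per cell cannot be told apart.

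A list of 40 leukocyte genes, put together after values had been seen, had 27 tested members. Of these 23 were positive, against 50.3% of all tested genes, and the list median was 0.29. At an unadjusted p under 0.05 there were 7 (25.9% of the list, against 2.02% of all tested genes), ARHGAP15 among them, and 4 without psilocybin 1 day animal 4 or without saline 1 day animal 5. CD48, a surface protein of blood cells, had 1.91 ± 0.70, but it was 0.29 in batch 1 and 3.03 in batch 2. BLNK, an adaptor of the B cell receptor that microglia also express, had 0.92 ± 0.34, and CD53, a leukocyte tetraspanin, had 0.68 ± 0.27. The summed level of leukocyte genes was 248 to 335 CPM and 234 to 346 CPM in saline and psilocybin animals at 1 day, and 267 to 316 CPM and 268 to 356 CPM at 1 week. Several T and B cell genes were below the filter: CD3E reached at most 0.809 CPM, CD3D 0.965 CPM and MS4A1 0.203 CPM in any library. The T cell gene CD8A and the B cell gene CD79A passed the filter, and CD8A reached 1.62 CPM, in a saline animal at 1 week. ARHGAP15 was as low, with at most 1.67 CPM. The part of leukocytes or microglia in the interferon and complement values was not tested.

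Astrocyte and oligodendrocyte lists had negative medians over all animals. Of 15 astrocyte markers 12 were negative, against 7481 of the 15049 tested genes. The astrocyte median was -0.13, and it was -0.031 without saline 1 day animal 1, the animal with the lowest astrocyte score. ALDH1L1 was the 1 marker at an unadjusted p under 0.05 (6.67% of the list, against 2.02% of all tested genes). Its level was 20, 24.6, 19, 22.4 and 21.3 CPM in saline and 21.9 to 27.7 CPM (median 24.2) in psilocybin animals at 1 day, and 25.8 to 38.9 CPM (median 28.9) and 19.7 to 29.1 CPM (median 26.4) at 1 week. The saline animals at 1 day were thus the lowest group for ALDH1L1. CBS, of the transsulfuration pathway, had -0.25 ± 0.16, the astrocyte membrane protein MLC1 -0.31 ± 0.22, and the transcription factor SOX9 -0.18 ± 0.13. MLC1 was at -0.16 without saline 1 week animal 1 and SOX9 at -0.12 without psilocybin 1 day animal 5. In saline animals 0 of the 15 astrocyte markers were lower at 1 week than at 1 day (48.3% of all tested genes). In psilocybin animals 13 of the 15 were higher at 1 week (54.3% of all tested genes). The medians of these time differences were 0.19 after saline and 0.11 after psilocybin. The median of the astrocyte list was -0.23 in batch 1 and 0.01 in batch 2.

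Oligodendrocyte and myelin markers had 14 of 18 negative (median -0.11), against 7481 of the 15049 tested genes. The sign of this median differed between batches, at 0.22 in batch 1 and -0.31 in batch 2. The median was 0.082 without saline 1 day animal 4 and -0.30 without saline 1 day animal 5, and their summed level varied from 4019 to 24174 CPM among saline animals at 1 day alone. Precursor markers had 9 of 12 negative with a median of -0.04, which was 0.068 in batch 1, -0.27 in batch 2 and 0.019 without psilocybin 1 week animal 6. Among them MEGF11, a receptor of precursor cells, had -0.48 ± 0.19 (unadjusted p = 0.0199). Endothelial markers had 8 of 11 negative with a median of -0.06, and the batches gave 0.40 and -0.41. Without saline 1 day animal 5 the endothelial median was 0.048. BCAN, the perineuronal net proteoglycan brevican, had -0.32 ± 0.13 (unadjusted p = 0.0203).

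**Figure D4:**
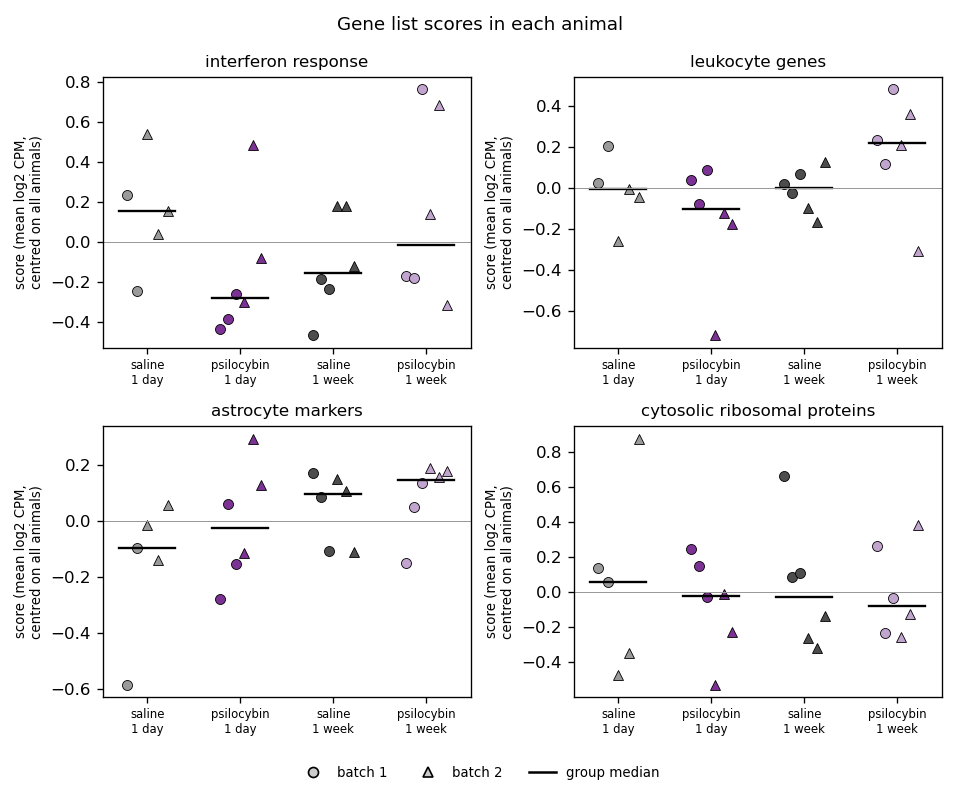
Scores of 4 gene lists (vertical axes, mean log2 CPM centred on all animals) in each animal by group, with circles for batch 1, triangles for batch 2 and a line at the group median. Psilocybin 1 week animals 3 and 5 stand highest for the interferon response at 0.76 and 0.68, and saline 1 day animal 5 stands highest for ribosomal proteins at 0.87.

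Cytosolic ribosomal protein and respiratory chain genes had positive interactions that rested on 1 library. Of 46 ribosomal protein genes 43 were positive (median 0.21), against 50.3% of all tested genes. Of 56 nuclear respiratory chain genes 48 were positive (median 0.18), and 0 in either list had an unadjusted p under 0.05. Saline 1 day animal 5 had the highest score of all animals for both, 0.87 and 0.55. Without that animal the median of the cytosolic ribosomal proteins was -0.11 with 3 of 46 positive and that of the nuclear respiratory chain was 0.00067, and without the 3 libraries that stood apart the ribosomal median was -0.12 with 2 positive. The batches gave -0.32 and 0.74. For RPS3A, a protein of the small subunit, the interaction was 0.38 ± 0.31 in all animals, -0.24 in batch 1 and 0.94 in batch 2. NDUFB5, of complex I, had 0.45 ± 0.28, with -0.18 and 0.98 in the batches and 0.11 without saline 1 day animal 5. The 13 protein genes of the mitochondrial genome had a median of -0.07, with -0.40 and 0.21 in the batches and 0.068 without saline 1 day animal 2.

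The batches differed across all genes as well. Across the 15049 genes the interaction in batch 1 and in batch 2 had a Pearson r of -0.119 and a Spearman rho of -0.212, as a description across genes that share their libraries. Each batch alone called 0 genes, with 293 genes at an unadjusted p under 0.05 in batch 1 and 498 in batch 2. The libraries that stood apart fell in different groups of the 2 batches, and their part in this correlation was not tested.

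Of the genes closest to the drug's mechanism, none had an interaction that stood out. HTR2A was at 13.1, 15.2, 21.3, 23 and 15.4 CPM in saline and 10.1 to 23.5 CPM (median 14) in psilocybin animals at 1 day, and at 11.6 to 21.9 CPM (median 20.8) and 10.9 to 21.3 CPM (median 18.3) at 1 week. All 4 groups overlapped for HTR2A, and its interaction of 0.11 had a 95% confidence interval of -0.48 to 0.71. HTR2C, of the related 5-HT2C receptor, had 0.07 (-0.27 to 0.41). BDNF, the neurotrophin, had 0.03 (-0.47 to 0.54) and its receptor NTRK2 -0.04 (-0.36 to 0.28). SV2A, the synaptic vesicle protein imaged as a marker of synapses, had -0.03 (-0.39 to 0.34). The intervals for HTR2C, NTRK2 and SV2A lay within 0.5 log2 units of 0, while those for HTR2A and BDNF did not.

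The activity-induced genes were less precise. The interaction of ARC was -0.39 with a 95% confidence interval of -1.51 to 0.72, and that of FOS was -0.09 (-0.93 to 0.75). For the transcription factor genes EGR1 and NR4A1 it was 0.23 (-0.40 to 0.87) and 0.00 (-0.77 to 0.78), and for the phosphatase gene DUSP1 it was -0.07 (-0.60 to 0.47). ARC varied most, with 220 ± 174 CPM (SD, n = 6) in saline animals at 1 week. In the list of 37 immediate early and activity-induced genes 15 were positive, against 50.3% of all tested genes. The list median was -0.03, and 0 members had an unadjusted p under 0.05. The sign of this list turned with the batch, with 26 positive (median 0.15) in batch 1 and 10 (median -0.21) in batch 2. Its median was -0.16 without saline 1 day animal 2 and 0.12 without saline 1 week animal 5. FKBP5, induced by glucocorticoids, had 0.10 (-0.30 to 0.50).

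Within the serotonin system 5 of 10 tested genes were positive, near the 50.3% of all tested genes, and 2 had an unadjusted p under 0.05, against 2.02% of all. SLC6A4, the serotonin transporter, was at 1.12, 0.915, 0.661, 0.896 and 0.424 CPM in saline and 0.255 to 1.32 CPM (median 0.555) in psilocybin animals at 1 day. At 1 week it was at 0.694 to 1.25 CPM (median 0.795) after saline and 0.709 to 2.04 CPM (median 1.57) after psilocybin. The SLC6A4 interaction was 1.03 ± 0.44 (unadjusted p = 0.0294), from levels near the filter. MAOB, the monoamine oxidase of glia, had -0.27 ± 0.12 (unadjusted p = 0.0357), almost all of it in batch 1, at -0.52 against -0.04 in batch 2.

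Lists of neuronal identity and synapse genes centred near 0. The medians were -0.02 for excitatory neuron markers, -0.03 for inhibitory neuron markers, -0.02 for glutamate receptors and their scaffold and -0.01 for the presynaptic release genes. Single members at an unadjusted p under 0.05 were CALB2, the calcium-binding protein of an interneuron class, at -0.53 ± 0.24 and DLG1, a postsynaptic scaffold, at 0.26 ± 0.11. In the Gq pathway and desensitisation list 12 of 24 were positive, near the 50.3% of all tested genes. Its member GRK6, a receptor kinase, had -0.29 ± 0.13 with exons shared with PRR7 and F12.

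A few more single genes reached that level in lists whose medians were near 0. Of 31 tested cell cycle genes 18 were positive (median 0.07), against 50.3% of all tested genes. Among them 3 had an unadjusted p under 0.05 (9.68% of the list, against 2.02% of all). Other genes of dividing cells, such as CDK1, CCNB1 and BUB1, were below the filter. MKI67 and PCNA had no symbol match and were not analysed here. GINS3, of the replicative helicase, had 0.77 ± 0.35 and KIF20A, a mitotic kinesin, 0.39 ± 0.19, beside CENPF. IGF1, the growth factor, had 0.94 ± 0.40, with a difference of -0.94 ± 0.30 at 1 day and 0.00 ± 0.28 at 1 week. STARD4, a cholesterol transporter, had 0.36 ± 0.13 (unadjusted p = 0.00915). Of 22 cholesterol synthesis genes 14 were negative, against 7481 of the 15049 tested genes.

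**Figure D5:**
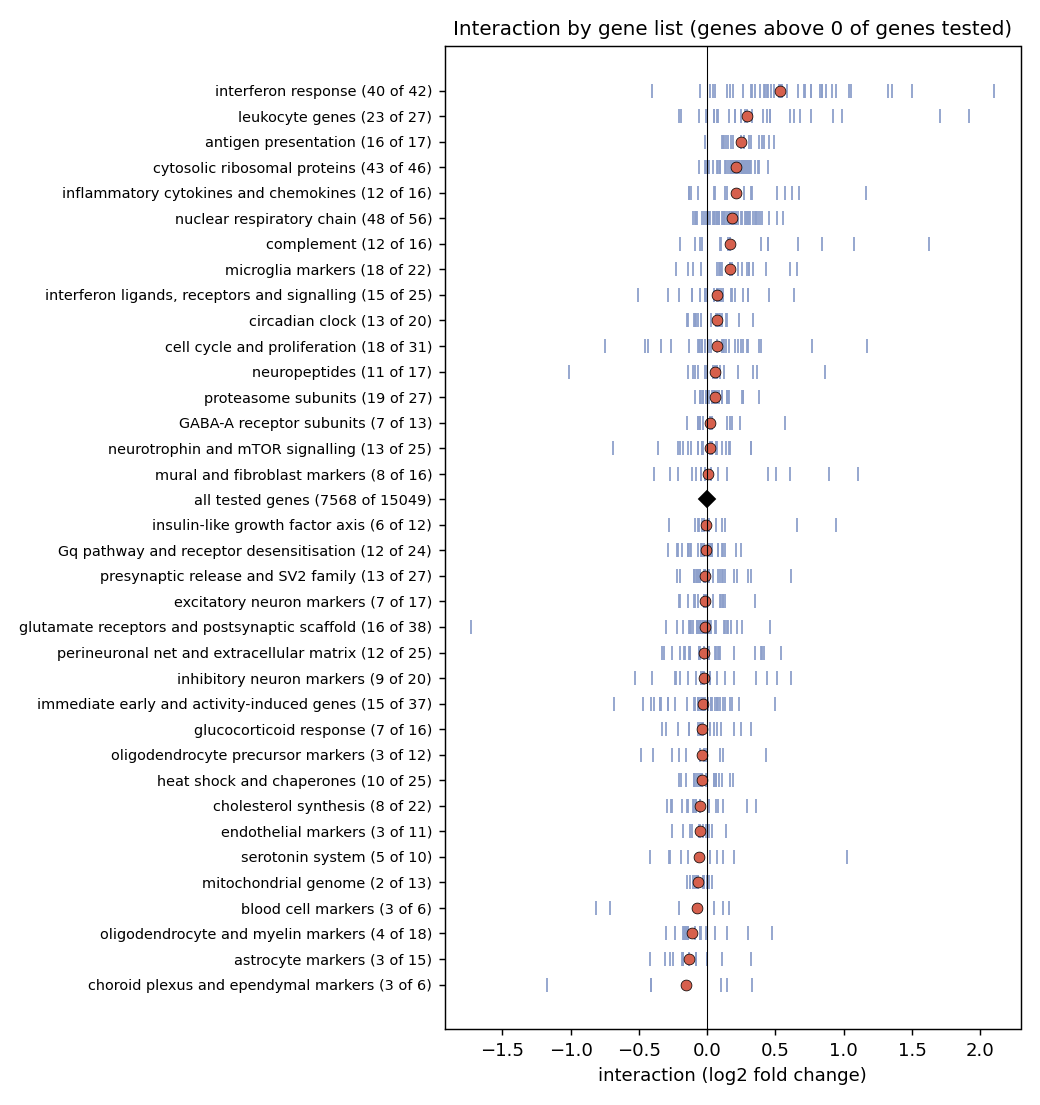
Interaction as log2 fold change (horizontal axis) for each gene list, with a tick for every tested member, a red point at the list's median and a black diamond for all 15049 genes, and in brackets the members above 0 of those tested. The interferon response has the highest median at 0.54, and most neuronal and synaptic lists lie near 0.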

How the data were processed

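Expected counts, as deposited, cover 25880 Ensembl genes with 1 column for each library. Per the submitters' processing notes, fastp 0.20.0, STAR 2.6c, featureCounts 1.5.1 and the pig build susScr11 were used. Per the file headers, featureCounts counted primary alignments of read pairs with both ends mapped, without regard to strand, and split pairs that overlap several genes in fractions, so overlapping genes on either strand share counts. Here the counts were rounded, low genes were removed by filterByExpr of edgeR (count minimum 10, total minimum 15), and libraries were scaled by TMM. Genes were tested two-sided with the robust quasi-likelihood test of edgeR 4.0.16 in R 4.3.3, in 1 model of the 4 groups with a batch term, and p-values were adjusted by Benjamini-Hochberg over the 15049 genes. The scripts were tested on simulated data. With 1 library for each animal, p-values measure the spread between animals.

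Named genes were the 12 genes with a symbol and the smallest p in each direction, 12 genes of interest (of which HTR1A had no symbol match), and up to 4 members with the smallest p of each list described; RSAD2, IFNAR1 and IFNGR1 were added after their values were seen. The members of the lists and the rules were chosen with earlier results of these data known. Symbols were matched for 14857 genes. Positions are the span of the exons in the deposited table. Alternatives used DESeq2 1.42.0, limma 3.58.1 and sva 3.50.0, other filters and scaling, single batches, and leaving out animals.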

Additional observations from a re-analysis of the deposited data

Results flagged for a closer look

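Of 336 groups of values examined (named genes, 7 list scores and the mitochondrial share, in each group of animals), 16 had an animal far from the others in its group by Dixon's criterion, and chance flags about 1 in 20. High single values were MFGE8 in saline 1 week animal 1 (189 CPM), CADM1 in psilocybin 1 day animal 5 (133 CPM) and in saline 1 week animal 5 (144 CPM), IRF9 in saline 1 week animal 5 (17.3 CPM), SLA-DMA in saline 1 day animal 2 (5.49 CPM) and the mitochondrial share in psilocybin 1 week animal 1 (12.9%).

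Low single values were TPP1 in saline 1 day animal 5 (59.6 CPM) and in saline 1 week animal 1 (71.4 CPM), ALDH1L1 in psilocybin 1 week animal 2 (19.7 CPM) and FRMD1 in psilocybin 1 week animal 5 (2.64 CPM, the others 8.22 to 10.7). NTRK2 (549 CPM), TAP1 (16.3 CPM) and C3AR1 (0.877 CPM) were low in saline 1 week animal 3. CASP1 (1.12 CPM) and the leukocyte score (-0.718) were low in psilocybin 1 day animal 4, and CD53 was low in saline 1 day animal 3 (3.97 CPM). The 2 libraries with low TPP1 are among the 3 that stood apart.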

How the results depend on the processing

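The number of genes called stayed at 0 in the 11 other fits and as each of 23 animals was left out, with a smallest adjusted p of 0.581 without the 3 libraries that stood apart (a choice made after seeing the data). At an unadjusted p under 0.05 the positive genes numbered 280 with no filter, 322 in batch 2 and 124 to 215 with an animal left out, and the negative genes 215 with no filter, 232 with a surrogate variable and 94 to 184. Of the 24 leading genes, all kept their sign in every fit made, which their selection on the interaction in these same animals favours. No paired analysis was possible because the groups share no animal number.

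Signs turned in genes near 0 and in those tied to batch; the cause was not tested. In batch 1 alone HTR2A was -0.063, HTR2C -0.12, SV2A 0.10, FOS 0.21, DUSP1 0.077, RPS3A -0.24, NDUFB5 -0.18, IFNAR1 0.12 and IFNGR1 0.056. In batch 2 alone BDNF was -0.21, NR4A1 -0.010 and P2RY13 -0.0097. Without the 3 libraries NTRK2 was 0.043, SV2A 0.064, IFNAR1 0.11 and IFNGR1 0.046. FOS was 0.10 with limma-voom, IFNAR1 0.025 without the batch term, and NR4A1 -0.014 with RLE factors, -0.0078 with no filter and -0.013 with DESeq2. With 1 animal left out the ranges were HTR2A -0.0041 to 0.33, HTR2C -0.071 to 0.14, BDNF -0.11 to 0.15, NTRK2 -0.14 to 0.051, SV2A -0.10 to 0.10, FOS -0.27 to 0.20, ARC -0.64 to 0.11, NR4A1 -0.16 to 0.28, DUSP1 -0.19 to 0.10, IFNAR1 -0.10 to 0.11 and IFNGR1 -0.076 to 0.055. The mitochondrial share was 1.21 points in batch 2, -2.20 in batch 1 and -1.49 to 0.426 with an animal left out.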
